A study of Mus musculus with 21 samples.

Results

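Tnfsf11, Tnfrsf11b, Csf1 and Il34 are the 4 genes described here, through which stromal cells of the marrow control osteoclasts and macrophages. They were chosen by name for that role and found by matching the Ensembl identifiers of the deposited table to mouse symbols, and they are 4 of its 26852 genes. Tnfsf11 encodes RANKL, the ligand that drives precursors of the monocyte lineage to become bone-resorbing osteoclasts through the receptor RANK, which Tnfrsf11a encodes. Tnfrsf11b encodes osteoprotegerin, a secreted decoy receptor that binds RANKL and keeps it from RANK, so the balance of the pair sets how much osteoclast signal a stromal cell gives. Csf1 and Il34 encode the ligands of the CSF1 receptor, CSF-1 and interleukin-34, which keep macrophages and osteoclast precursors alive and dividing. In bone marrow, osteoblast lineage cells, osteocytes and reticular stromal cells are known sources of RANKL, osteoprotegerin and CSF-1.

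The libraries hold RNA of mouse bone marrow Nes-low mesenchymal cells, sorted by flow cytometry from digested bone for low GFP from a Nestin promoter reporter, after beads had removed human and mouse CD45 blood cells. All hosts were Nestin+ NSG mice, which lack B, T and NK cells, and recipients were unconditioned and 8 to 12 weeks old at transplantation. The control group, ctrl, holds 3 libraries of cells from mice that received no leukemia. Recipients carried HL60 or ML1, each a human acute myeloid leukemia line that secretes a membrane-permeable mCherry which nearby host cells take up. At an early time point of leukemic growth the mesenchymal cells were split into mCherry-labelled cells (early ch+, nearest to the leukemia) and unlabelled cells (early ch-), with 3 libraries for each line and fraction. At a late time point, 3 libraries were made for each line (late). ML1 late libraries carry a treatment field that reads unengrafted, while their titles and time point say late, and they are kept as late. The study describes both early fractions as taken from the same marrow, but pairs of ch+ and ch- libraries from a mouse cannot be told from the labels, nor whether libraries of a group come from separate mice, so p-values measure only the spread between these libraries. Every comparison with ctrl shares the same 3 control libraries.

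The deposited values are the authors' regularized log2 normalized counts, in which weakly expressed genes are drawn toward their mean, so differences for such genes are understated. The depth of each library is unknown, since the table holds no raw counts and the study gives only a typical yield. Converted back from log2, the values of each late library summed to 56.0% to 69.5% of the mean ctrl total, and those of each early library to 86.4% to 113.6% of it. Bringing every library to the same total would move the median log2 difference of all 12976 genes tested, late minus ctrl, from 0.02 to 0.71, so changes below are relative to the authors' own scaling, under which that median stays near 0. Libraries within a group resembled each other, with Pearson r across genes from 0.935 to 0.976.

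The label of the cells was checked against stromal, endothelial and blood markers. Per kilobase of exon, the mean log2 level in ctrl was 12.16 for Cxcl12, the chemokine of reticular stromal cells, 9.78 for Lepr, the leptin receptor, and 8.46 for Pdgfra. Endothelial Pecam1, which encodes CD31, stood at 2.95 and Cdh5 at 4.49 on that scale, although the extraction text of the labels describes sorting CD31+ endothelial cells. The blood cell gene Ptprc, which encodes CD45, stood at -1.64 in ctrl and -1.76 in late cells. In early cells Ptprc stood higher, at 0.01 in ch- and 0.60 in ch+. With the longest transcript as length, Ptprc stood at 0.04, Pecam1 at 3.81 and Cxcl12 at 12.7 in ctrl. Bone and cartilage markers were also abundant. Without length correction, the summed log2 level in ctrl was 20.25 to 20.69 for osteoblast and osteocyte markers and 16.83 to 17.72 for chondrocyte markers. That of reticular stromal markers, led by Cxcl12, was 15.56 to 16.18. The transcript of Nes, which encodes Nestin, had a mean log2 value of 7.39 in ctrl and 7.30 in late cells, without length correction, while the sort itself used the GFP reporter.

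A gene was called when limma's Benjamini-Hochberg adjusted p, taken over the 12976 genes whose mean reached 3.32 (log2 of 10 normalized counts), was under 0.1. Where a difference is followed by a count of libraries, these are libraries of the first group that lay beyond every library of the second. Such a count does not compare pairs of libraries. All 4 member genes passed the filter on the mean. Late against ctrl, 3 of the 4 were called higher and 0 lower, where 10.2% of all tested genes were called higher and 11.4% lower. Early ch+ against ctrl, 0 of 4 were called by limma, although all 4 had an unadjusted p under 0.05, and 3.41% of all genes were called higher and 2.75% lower. Early ch- against ctrl, 0 of 4 were called by limma and 1 had an unadjusted p under 0.05, with 1.13% of all genes higher and 0.786% lower. Between the early fractions, ch+ against ch-, 1 member was called higher and 1 lower, where 3.58% and 2.68% of all genes were. Late against early ch+, 2 members were called higher and 0 lower, where 8.79% and 10.9% of all genes were.

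**Figure D1:**
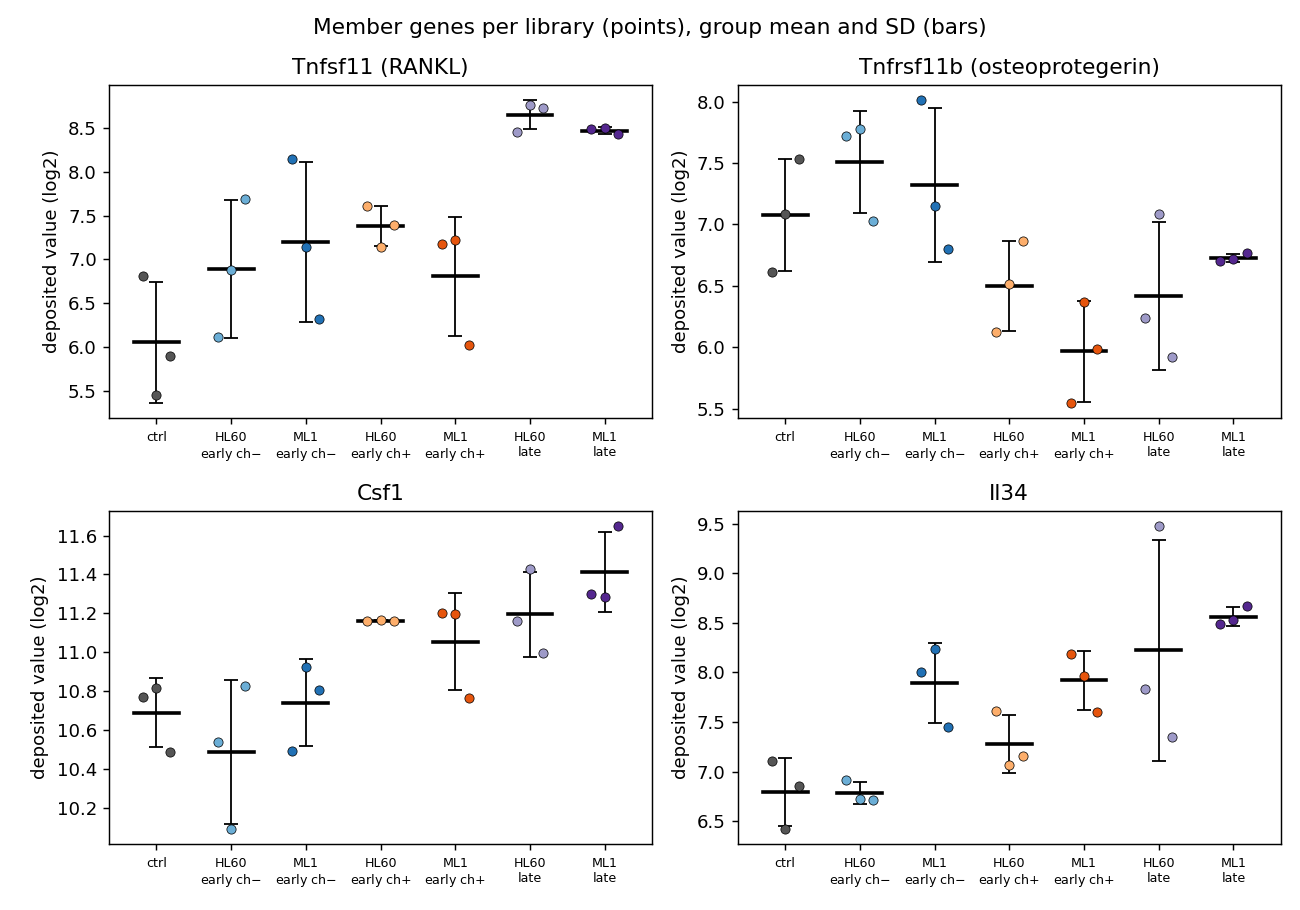
Deposited log2 value of each member gene in each of the 21 libraries, by group and cell line, with group means. Tnfsf11 in the 6 late libraries sits between 8.43 and 8.77, above every other library.

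Tnfsf11 (ENSMUSG00000022015, GRCm38 chromosome 14, 78277445 to 78308043, minus strand) makes the osteoclast-driving ligand. Its log2 value was 6.81, 5.45 and 5.90 in the ctrl libraries 373, 374 and 375 (mean 6.05, SD 0.69, n = 3). In the late libraries it was 8.46, 8.77 and 8.72 with HL60 (mean 8.65, SD 0.17) and 8.49, 8.49 and 8.43 with ML1 (mean 8.47, SD 0.04). The 6 late libraries all lay above the 3 controls and above all 12 early libraries, and they differed from each other by less than the controls did. In early ch+ cells the values were 7.61, 7.14 and 7.40 with HL60 (mean 7.38, SD 0.23) and 7.18, 7.22 and 6.03 with ML1 (mean 6.81, SD 0.68). Early ch- cells gave 6.11, 6.88 and 7.69 with HL60 (mean 6.89, SD 0.79) and 8.14, 7.14 and 6.32 with ML1 (mean 7.20, SD 0.91). Both early fractions spanned from control levels up toward late ones, and their ranges overlapped each other and ctrl.

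RANKL transcript rose in late cells by a log2 fold change of 2.50 over ctrl (SE 0.36, 5.68-fold, limma adjusted p 7.04e-06), in 6 of 6 libraries. The call held in each line, at 2.59 with HL60 (adjusted p 3.51e-05) and at 2.42 with ML1 (adjusted p 4.14e-05), where 13.7% and 22.0% of all genes were called in either direction. Late cells also exceeded early ch+ cells, by 1.46 (SE 0.29, 2.76-fold, limma adjusted p 0.000481), again in 6 of 6 libraries. Both of these pooled calls held without any single library. In a bulk library, more RNA per cell and a larger share of expressing cells cannot be told apart, here or in the results below.

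The early values of Tnfsf11 did not pass the test in the pooled fit. Early ch+ minus ctrl was 1.04 (95% interval 0.31 to 1.78, limma adjusted p 0.110), and early ch- minus ctrl was 0.99 (0.26 to 1.73, limma adjusted p 0.231). The ch+ difference was called at 1.12 (limma adjusted p 0.0721) once libraries were rescaled to equal totals. It was called at 1.04 (limma adjusted p 0.0847) in the 7-group fit with the lines weighted equally. It also passed without ctrl 373 (1.42), without ML1 ch+ 541 (1.26), the lowest of its fraction, and at 1.04 without HL60 ch- 527, ML1 ch- 543 or ML1 ch- 546, which enter the estimate of the spread. By line, Tnfsf11 was called in HL60 ch+ cells over ctrl, at 1.33 (SE 0.41, limma adjusted p 0.0669, 3 of 3 libraries), a comparison in which 5.33% of all genes were called. That call was lost without ctrl 374, ctrl 375, HL60 ch+ 523 or HL60 ch+ 525, with values of 1.03, 1.25, 1.22 and 1.32. ML1 ch- minus ctrl was 1.15 (limma adjusted p 0.187), and it passed without ctrl 373 (1.53) or ML1 ch- 546 (1.59). It fell to 0.68 without ML1 ch- 543. HL60 ch- minus ctrl was 0.84 (limma adjusted p 0.463), from 0.44 without HL60 ch- 529 to 1.23 without HL60 ch- 527. ML1 ch+ cells gave 0.76 (limma adjusted p 0.363), from 0.46 without ctrl 374 to 1.15 without ML1 ch+ 541, where 6.69% of all genes were called. The 2 lines' ch+ values differed by 0.57 (95% interval -0.26 to 1.41), which did not pass the test and was 0.18 without ML1 ch+ 541. RANKL was not called between labelled and unlabelled cells. Pooled, ch+ minus ch- was 0.05 (95% interval -0.55 to 0.65, limma adjusted p 0.962), and it reached -0.14 without HL60 ch- library 527 and 0.27 without ML1 ch- library 543. By line the values had opposite signs and neither was called, with 0.49 for HL60 (95% interval -0.34 to 1.32, limma adjusted p 0.699; 0.10 to 0.89 with a library left out) and -0.39 for ML1 (95% interval -1.22 to 0.44, limma adjusted p 0.741; -0.83 to 0.081).

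Ordered from low to high by group mean, Tnfsf11 ran ctrl, ML1 ch+, HL60 ch-, ML1 ch-, HL60 ch+, ML1 late, HL60 late. Neighbours in that order overlapped in range except HL60 ch+ and ML1 late.

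Tnfrsf11b (ENSMUSG00000063727, chromosome 15, 54250619 to 54278484, minus strand) makes the decoy receptor osteoprotegerin. Its log2 value was 6.61, 7.08 and 7.53 in ctrl (mean 7.08, SD 0.46, n = 3). In early ch- cells it was 7.72, 7.77 and 7.03 with HL60 (mean 7.51, SD 0.41) and 8.01, 7.15 and 6.80 with ML1 (mean 7.32, SD 0.62). In early ch+ cells it was 6.13, 6.51 and 6.86 with HL60 (mean 6.50, SD 0.37) and 5.54, 6.37 and 5.98 with ML1 (mean 5.96, SD 0.41). All but 1 of the 6 labelled libraries lay below every unlabelled one, and within each line the fractions did not overlap. Late cells gave 6.24, 7.08 and 5.92 with HL60 (mean 6.41, SD 0.60) and 6.70, 6.71 and 6.76 with ML1 (mean 6.73, SD 0.03), a range that overlapped ctrl and ch+.

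Osteoprotegerin transcript was lower in labelled than in unlabelled early cells, with a log2 fold change of -1.18 (SE 0.26, 0.441-fold, limma adjusted p 0.00450), in 5 of 6 libraries. This call held without any single library. By line the difference was -1.35 with ML1 (SE 0.37, limma adjusted p 0.0360, 3 of 3 libraries), where 4.25% of all genes were called. It was -1.01 with HL60 (SE 0.37, 3 of 3 libraries), which missed the threshold at limma adjusted p 0.183, where 3.92% were called. The ML1 call was lost without ML1 ch+ 538 or ML1 ch- 543, at -1.14 and -1.01. Whether the fraction effect differs between the lines was not tested. Against ctrl, ML1 ch+ cells were lower by -1.11 (SE 0.37, limma adjusted p 0.0840, 3 of 3 libraries), a call lost at -1.11, -0.89, -1.11, -1.11, -0.90 and -1.12 without ctrl 374, ctrl 375, ML1 late 581, ML1 late 583, ML1 ch+ 538 or ML1 ch+ 541, in that order. The pooled ch+ minus ctrl difference was -0.84 (95% interval -1.50 to -0.19, limma adjusted p 0.156), and -0.97 with a call without HL60 ch+ 525. HL60 ch+ minus ctrl was -0.58 (limma adjusted p 0.480).

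In late cells Tnfrsf11b did not pass the test against ctrl, at -0.51 (95% interval -1.16 to 0.15, limma adjusted p 0.327). Its sign turned to 0.19 when libraries were rescaled to equal totals, where the median of all genes was 0.71. Late minus ch+ was 0.34 (95% interval -0.20 to 0.87, limma adjusted p 0.467). Under that rescaling it was called at 0.95, where the median of all genes was 0.63. Early ch- minus ctrl was 0.34 (95% interval -0.32 to 0.99, limma adjusted p 0.743). From low to high the group means ran ML1 ch+, HL60 late, HL60 ch+, ML1 late, ctrl, ML1 ch-, HL60 ch-, and each overlapped its neighbour.

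The balance of RANKL to osteoprotegerin, taken within a library as the log2 value of Tnfsf11 minus that of Tnfrsf11b, does not depend on how libraries are scaled. It was 0.20, -1.63 and -1.63 in ctrl (mean -1.02, SD 1.06, n = 3). In early ch- cells it was -1.61, -0.90 and 0.66 with HL60 and 0.13, -0.01 and -0.48 with ML1. Controls and unlabelled cells thus lay on both sides of 0, with 1 of 3 and 2 of 6 libraries above it. These values carry no length correction, and per kilobase of exon each is higher by 0.33, which puts 1 of 3 and 3 of 6 above 0. In early ch+ cells the difference was 1.48, 0.63 and 0.54 with HL60 and 1.63, 0.86 and 0.05 with ML1. In late cells it was 2.22, 1.68 and 2.81 with HL60 and 1.78, 1.78 and 1.67 with ML1. All 6 labelled and all 6 late libraries were above 0, and every late library was above every ch+ one.

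As pooled means, the balance was -0.37 (SD 0.81, n = 6) in ch-, 0.86 (SD 0.60) in ch+ and 1.99 (SD 0.45) in late cells. These means were also converted back from log2 to geometric mean ratios of the deposited, regularized values, which are not ratios of counts. RANKL to osteoprotegerin was then 3.97 in late cells and 1.82 in labelled cells, against 0.775 in unlabelled cells and 0.492 in ctrl. Per kilobase of exon these ratios were 5.00, 2.29, 0.977 and 0.620. The ctrl mean moved to -1.63 without library 373, and the ch- mean ranged from -0.57 without HL60 ch- 529 to -0.12 without HL60 ch- 527.

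**Figure D2:**
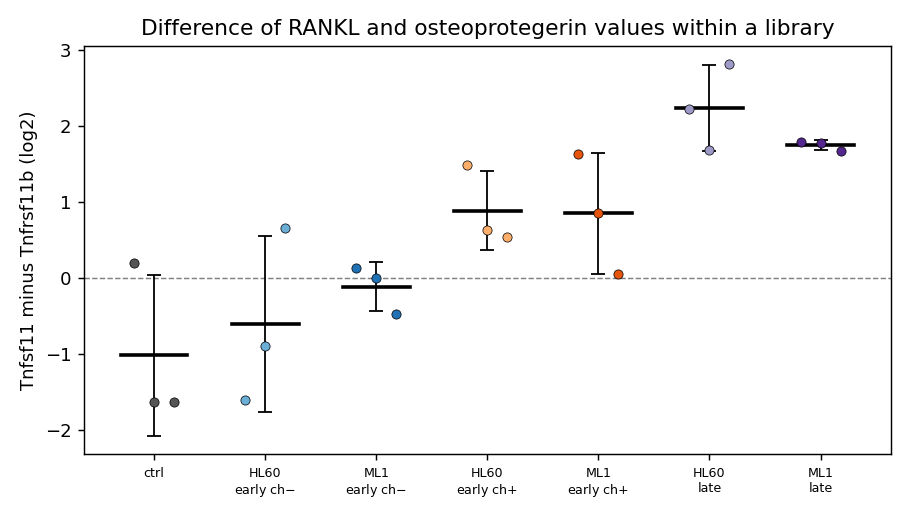
Log2 value of Tnfsf11 minus that of Tnfrsf11b in each library, by group and cell line. The 6 late libraries lie from 1.67 to 2.81 and the ctrl libraries from -1.63 to 0.20.

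Csf1 (ENSMUSG00000014599, chromosome 3, 107741048 to 107760469, minus strand) makes CSF-1, the main growth factor of macrophages. Its log2 value was 10.77, 10.81 and 10.48 in ctrl (mean 10.69, SD 0.18, n = 3). Early ch- cells gave 10.54, 10.09 and 10.82 with HL60 (mean 10.48, SD 0.37) and 10.49, 10.92 and 10.80 with ML1 (mean 10.74, SD 0.22). Early ch+ cells gave 11.16, 11.17 and 11.16 with HL60 (mean 11.16) and 11.20, 11.20 and 10.77 with ML1 (mean 11.05, SD 0.25). In ch+, 5 of the 6 libraries lay between 11.16 and 11.20, above every ch- and ctrl library, and ML1 ch+ 541 lay within the range of both. Late cells gave 11.16, 11.43 and 10.99 with HL60 (mean 11.19, SD 0.22) and 11.30, 11.28 and 11.65 with ML1 (mean 11.41, SD 0.21), all above ctrl.

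CSF-1 transcript was higher in labelled than in unlabelled cells, by a log2 fold change of 0.50 (SE 0.13, 1.41-fold, limma adjusted p 0.0208), in 5 of 6 libraries. Late cells exceeded ctrl by 0.61 (SE 0.16, 1.53-fold, limma adjusted p 0.00705), in 6 of 6 libraries. Both calls held without any single library. With ML1, late minus ctrl was 0.72 (limma adjusted p 0.00271). With HL60 it was 0.51 (limma adjusted p 0.0598), a call lost at 0.40, 0.52 and 0.39 without ctrl 375, HL60 late 397 or HL60 late 398. HL60 ch+ exceeded HL60 ch- by 0.68 (SE 0.17, limma adjusted p 0.0241), lost at 0.48 without HL60 ch- 528. ML1 ch+ minus ML1 ch- was 0.32 (95% interval -0.04 to 0.67, limma adjusted p 0.435).

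Against ctrl, the ch+ difference of Csf1 was 0.42 (95% interval 0.09 to 0.75, limma adjusted p 0.163) and was not called. It reached an adjusted p of 0.0993 in limma when only these groups were fitted, and it was called at 0.49 without ML1 ch+ 541. Early ch- minus ctrl was -0.08 (95% interval -0.41 to 0.25, limma adjusted p 0.898), and 0.03 without HL60 ch- library 528. Late minus ch+ was 0.19 (95% interval -0.07 to 0.46, limma adjusted p 0.388). It was called at 0.81 when libraries were rescaled to equal totals, where the median of all genes was 0.63. The group means ran HL60 ch-, ctrl, ML1 ch-, ML1 ch+, HL60 ch+, HL60 late, ML1 late, each overlapping its neighbour in range.

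Il34 (ENSMUSG00000031750, chromosome 8, 110741829 to 110805924, minus strand) makes interleukin-34, the other ligand of the CSF1 receptor. Its log2 value was 7.10, 6.42 and 6.85 in ctrl (mean 6.79, SD 0.34, n = 3). With HL60 it was 6.91, 6.72 and 6.72 in ch- (mean 6.79, SD 0.11), 7.61, 7.07 and 7.16 in ch+ (mean 7.28, SD 0.29) and 7.84, 9.48 and 7.35 in late cells (mean 8.22, SD 1.11). With ML1 it was 8.00, 8.23 and 7.45 in ch- (mean 7.90, SD 0.40), 8.19, 7.97 and 7.61 in ch+ (mean 7.92, SD 0.29) and 8.49, 8.53 and 8.67 in late cells (mean 8.56, SD 0.09). All ML1 libraries and all 3 HL60 late libraries lay above every control, and among HL60 late libraries number 398 stood apart at 9.48. The genes Gm15894 and Gm15895 overlap Il34 on the plus strand, with deposited log2 values of at most 3.64 and 0.88. The study's methods describe the reads as strand-specific. The labels do not say so, and the deposited values alone cannot show how reads of overlapping genes were shared out.

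Interleukin-34 transcript was higher in late cells than in ctrl by a log2 fold change of 1.60 (SE 0.36, 3.03-fold, limma adjusted p 0.00202), in 6 of 6 libraries, and this call held without any single library. By line it was 1.77 with ML1 (limma adjusted p 0.000351) and 1.43 with HL60 (limma adjusted p 0.00604). The HL60 value dropped to 0.80 and lost its call without HL60 late 398, and was 1.86 without HL60 late 399. Late minus ch+ was 0.79 (SE 0.30, limma adjusted p 0.0721), with 4 of 6 late libraries above all ch+ libraries. That call was lost at 0.77, 0.77, 0.74, 0.58, 0.69, 0.70 and 0.79 without ML1 late 581, ML1 late 582, ML1 late 583, HL60 late 398, HL60 ch+ 524, HL60 ch+ 525 or ML1 ch+ 541.

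In early cells Il34 was called with ML1 alone, in ch+ over ctrl at 1.13 (SE 0.35, limma adjusted p 0.0626, 3 of 3 libraries). The call was lost at 0.94, 1.16, 0.99 and 1.10 without ctrl 374, ctrl 375, ML1 ch+ 538 or ML1 ch+ 539. ML1 ch- cells lay as high, at 1.10 over ctrl (95% interval 0.38 to 1.82, limma adjusted p 0.127), where 2.34% of all genes were called, and this passed without HL60 late 398 or HL60 late 399, which enter the estimate of the spread. HL60 ch- cells stayed at -0.01 from ctrl (95% interval -0.73 to 0.71, limma adjusted p 0.998), where 1.57% were called, and HL60 ch+ cells at 0.49 (limma adjusted p 0.549). Tested directly, HL60 minus ML1 was -1.11 in ch- cells (95% interval -1.83 to -0.39, limma adjusted p 0.430), with all 3 HL60 libraries below all 3 ML1 libraries, and it was not called. In that comparison 0.0539% of all genes were called, and 0.0154% were between the lines in ch+ cells, where the Il34 difference was -0.64 (limma adjusted p 0.707). In late cells 4.09% of genes differed between the lines and 0 of the 4 members did by limma, 0 of them at an unadjusted p under 0.05, and for Il34 the difference was -0.34 (95% interval -1.06 to 0.38, limma adjusted p 0.896). Pooled over lines, Il34 was 0.81 above ctrl in ch+ (95% interval 0.06 to 1.55, limma adjusted p 0.252) and 0.55 in ch- (95% interval -0.20 to 1.29, limma adjusted p 0.598), and ch+ minus ch- was 0.26 (95% interval -0.35 to 0.87, limma adjusted p 0.743). The order of Il34 means was HL60 ch-, ctrl, HL60 ch+, ML1 ch-, ML1 ch+, HL60 late, ML1 late, each overlapping its neighbour.

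Compared per kilobase of exon, Csf1 was the most abundant of the 4 transcripts in every pooled group, at a mean log2 level of 8.29 in ctrl and 8.90 in late cells. Il34 stood at 5.82 in ctrl and 7.42 in late cells. Tnfrsf11b was at 5.58 in ctrl and 5.92 in unlabelled cells, but at 4.74 in labelled and 5.08 in late cells. Tnfsf11 was the lowest of the 4 in ctrl, at 4.89, but stood above Tnfrsf11b in ch+ cells at 5.93 and in late cells at 7.40, level with Il34.

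The genes of RANK and of the CSF1 receptor were near the floor of the table. Tnfrsf11a, which encodes RANK, had a mean log2 value of 0.95 over all libraries (0.80 to 2.00), and Csf1r, the receptor of CSF-1 and interleukin-34, a mean of 2.58 (2.11 to 3.69). Both fell short of the filter and were not tested. Of 9 listed receptors and membrane proteins linked to these ligands, shedding enzymes included, 7 were tested, and in late cells 3 were higher and 2 lower than ctrl, with a median log2 fold change of 0.04 against 0.02 over all genes. Adam19 (1.20, SE 0.27, adjusted p 0.00189) and Mmp14 (0.63, SE 0.13, adjusted p 0.00106), both membrane-anchored metalloproteinases, were higher in limma's test, with Adam19 at 0.69 without ctrl 375. Sdc1, a heparan sulfate proteoglycan, was higher in late cells (0.96, SE 0.21, limma adjusted p 0.00159) and in ch+ over ch- cells (1.00, SE 0.17, limma adjusted p 0.000240, 6 of 6 libraries), the 1 gene of the 7 called between the fractions.

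Lgr4, a further receptor for RANKL, was lower in late cells, at -0.81 (SE 0.16, limma adjusted p 0.000578, 6 of 6 libraries), but at -0.12 it was not called after rescaling to equal totals. In ch+ cells Lgr4 was -0.52 from ctrl (SE 0.16, limma adjusted p 0.0737), lost without ctrl 374 (-0.52), ctrl 375 (-0.43), HL60 ch+ 524 (-0.42) or ML1 ch+ 539 (-0.50). That call was also lost after quantile normalization (-0.49) and rescaling to equal totals (-0.44), and with no filter, no trend or the groups fitted alone. By line, Lgr4 was called with HL60 and not with ML1. It was not called in ch- against ctrl (-0.23, limma adjusted p 0.631), ch+ against ch- (-0.29, limma adjusted p 0.293) or late against ch+ (-0.29, limma adjusted p 0.157). Ptprz1, a receptor phosphatase that binds interleukin-34, was lower in late cells than in ctrl (-1.07, SE 0.21, limma adjusted p 0.000507) and than in ch+ (-0.90, SE 0.17, limma adjusted p 0.000320); both calls were lost on rescaling, at -0.37 and -0.28. Late cells also exceeded ch+ in Adam19 (0.71), Mmp14 (0.50) and Sdc1 (0.44), the last lost without any of 7 libraries, at 0.43 (ML1 late 581), 0.40 (ML1 late 583), 0.34 (HL60 late 398), 0.38 (HL60 ch+ 524), 0.45 (HL60 ch+ 525), 0.43 (ML1 ch+ 538) and 0.35 (ML1 ch+ 541). Early ch- cells differed from ctrl in 0 of the 7 by limma, with 1 at an unadjusted p under 0.05.

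A list was made of 18 inducers of RANKL in stromal cells and their receptors, 14 of them tested. In late cells 6 were higher and 4 lower than ctrl, with a median of 0.39. Higher were Ptger4, a prostaglandin E2 receptor (2.16, SE 0.30, limma adjusted p 3.95e-06), Osmr, the oncostatin M receptor (1.70, SE 0.20, limma adjusted p 3.56e-07), and Il1r1, the interleukin-1 receptor (1.48, SE 0.17, limma adjusted p 2.87e-07), each in 6 of 6 libraries. The cytokine Il6 was higher as well (1.93, SE 0.46, limma adjusted p 0.00294, 5 of 6 libraries), with 1.20 and no call when the ML1 late libraries were left out. Pth1r, the receptor through which parathyroid hormone induces RANKL, was lower (-1.67, SE 0.20, limma adjusted p 4.22e-07, 6 of 6 libraries), and so was Pthlh, which encodes a ligand of that receptor (-1.74, SE 0.36, limma adjusted p 0.000701). The remaining calls were Lif and Tnfrsf1a, higher, and Lifr and Vdr, lower. Among the receptors called, Ptger4, Osmr, Il1r1 and Tnfrsf1a were thus higher and Pth1r, Lifr and Vdr lower, a split that was not tested.

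Group means of Pth1r were 11.04 in ctrl and 11.00 in unlabelled, 10.41 in labelled and 9.37 in late cells, and those of Osmr were 9.46, 9.28, 10.07 and 11.16 in the same order. Labelled and unlabelled early cells differed in both, Pth1r by -0.59 (SE 0.16, limma adjusted p 0.0261) and Osmr by 0.79 (SE 0.16, limma adjusted p 0.00193), each in 6 of 6 libraries. Il6st, the shared signalling chain of the interleukin-6 family, was also higher in ch+ than ch- (0.40, SE 0.09, limma adjusted p 0.00631), so 2 of 14 were higher and 1 lower, with a median of 0.18 against -0.02 over all genes.

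Against ctrl, ch+ cells were called for Ptger4 (1.01, SE 0.30, limma adjusted p 0.0502), Osmr (0.61, SE 0.20, limma adjusted p 0.0860) and Pth1r (-0.63, SE 0.20, limma adjusted p 0.0687). These calls depended on single libraries. Ptger4 lost it without ctrl 373 (0.86) or ctrl 375 (0.99). Osmr lost it without ctrl 373 (0.39), ctrl 375 (0.69), HL60 ch+ 524 (0.61), ML1 ch+ 538 (0.54) or ML1 ch+ 539 (0.53). Pth1r lost it without ctrl 373 (-0.59), ctrl 374 (-0.61), ctrl 375 (-0.69), HL60 ch+ 524 (-0.60) or ML1 ch+ 538 (-0.62). By line, ch+ cells were called against ctrl for Ptger4 and Pth1r with HL60 and for Osmr and Pth1r with ML1. In ch- cells 0 of 14 were called against ctrl by limma, with 1 at an unadjusted p under 0.05, and Pth1r stood at -0.04 (limma adjusted p 0.960). Late cells differed from ch+ in 5 higher and 3 lower, led by Il6 (2.08, limma adjusted p 0.000121), Il1r1 (1.19, limma adjusted p 1.58e-07), Pthlh (-1.16, limma adjusted p 0.00489), Ptger4 (1.15, limma adjusted p 0.000858), Osmr (1.10, limma adjusted p 8.12e-06) and Pth1r (-1.04, limma adjusted p 1.63e-05). Pthlh was not called there at -0.55 after rescaling to equal totals, nor at -0.85 without the ML1 late libraries. Il11, Il1b, Tnf and Ptger2 lay below the filter, with mean log2 values of 1.47, 2.07, 1.66 and 2.90.

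**Figure D3:**
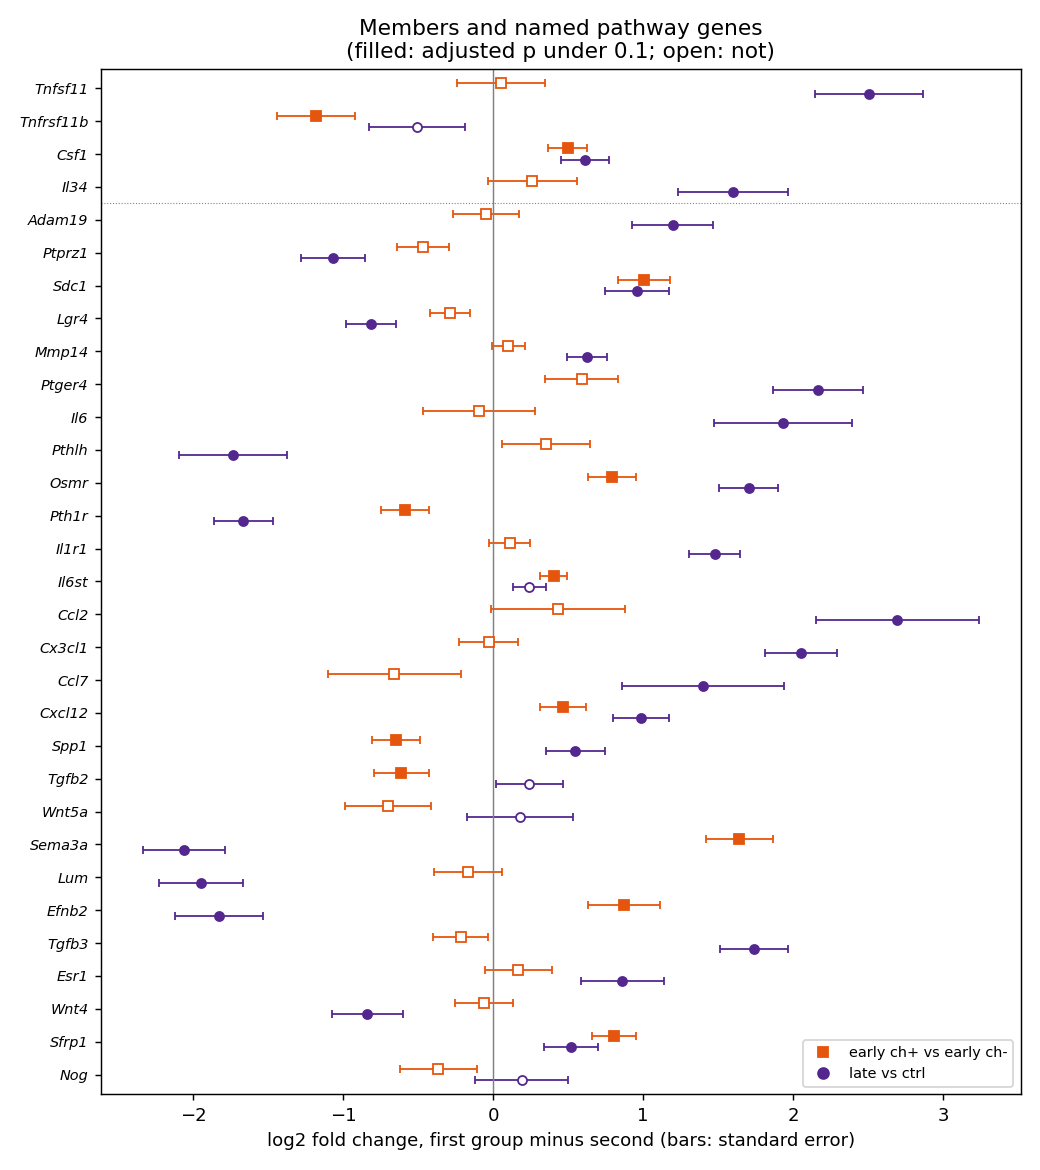
Log2 fold change with SE of named pathway genes, in early ch+ against early ch- cells (orange squares) and in late cells against ctrl (purple circles), with filled symbols for limma adjusted p under 0.1. Sema3a lies at 1.64 in the first comparison and at -2.06 in the second.

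Among 13 other cytokines of stroma that act on osteoclasts or macrophages, 11 were tested, and 5 were higher and 0 lower in late cells than in ctrl, with a median of 0.55. Cx3cl1, the chemokine fractalkine, was higher by 2.05 (SE 0.24, limma adjusted p 4.18e-07), and Cxcl12 by 0.99 (SE 0.19, limma adjusted p 0.000282), each in 6 of 6 libraries. Ccl2, a chemokine that recruits monocytes, was higher by 2.69 (SE 0.54, limma adjusted p 0.000561, 6 of 6 libraries). Its late values differed by line, with a mean of 7.64 with HL60 and 10.23 with ML1. Ccl7, another monocyte chemokine (1.40, limma adjusted p 0.0771), lost its call without ctrl 373 (0.92), ctrl 375 (1.40), ML1 late 581 (1.33), ML1 late 582 (1.26) or ML1 late 583 (1.11), and was at 0.58 without all ML1 late libraries. Spp1, which encodes osteopontin (0.55, limma adjusted p 0.0563), lost it without ctrl 373 (0.49), ctrl 374 (0.53), HL60 late 397 (0.49) or HL60 late 398 (0.39).

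In ch+ cells Cxcl12 was the 1 gene of the list called against ctrl (0.88, SE 0.19, limma adjusted p 0.00395, 6 of 6 libraries), and in ch- cells 0 of 11 were by limma, with 3 at an unadjusted p under 0.05. By line, Cxcl12 was called higher in ch+ cells of both, and with ML1 Cx3cl1 was higher in ch+ (0.74, limma adjusted p 0.0705) and in ch- (1.03, limma adjusted p 0.0176) and Spp1 lower in ch+ (-0.63, limma adjusted p 0.0240). Between the fractions, ch+ cells had less Spp1 (-0.65, SE 0.16, limma adjusted p 0.0127) and less Tgfb2 (-0.61, SE 0.18, limma adjusted p 0.0454), and more Cxcl12 (0.46, SE 0.15, limma adjusted p 0.0871), with a list median of -0.50. The Cxcl12 difference was 0.09 after quantile normalization and lost its call without HL60 ch+ 523 (0.45) or 525 (0.47), HL60 ch- 527 (0.48), 528 (0.34) or 529 (0.47), ML1 ch+ 538 (0.41) or 539 (0.41), or ML1 ch- 543 (0.44). Spp1 was not called after quantile normalization (-0.40), and Tgfb2, a growth factor, was not called after rescaling to equal totals (-0.46) or without HL60 ch+ 523 (-0.49) or HL60 ch- 527 (-0.52). Late cells exceeded ch+ in 6 of 11, namely Ccl2 (1.58), Ccl7 (1.35), Cx3cl1 (1.34, limma adjusted p 7.68e-06), Spp1 (0.96, limma adjusted p 4.58e-05), Wnt5a (0.74) and Tgfb2 (0.73, limma adjusted p 0.00448), with a median of 0.73. With the ML1 late libraries left out, Ccl2 was at 0.28 and Ccl7 at 0.54, neither called. Ccl7 was also not called without ML1 late 583 (1.06), nor Wnt5a without ML1 late 582 (0.68), HL60 late 397 (0.62), 398 (0.72) or 399 (0.65), HL60 ch+ 523 (0.68) or 524 (0.77), or ML1 ch+ 541 (0.61). Csf3 was below the filter, at a mean log2 value of -0.63, and Csf2 was not matched in the table.

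Stroma also restrains osteoclasts, and of 14 genes listed under that heading, called inhibitors below, 11 were tested. Sema3a encodes semaphorin 3A, a secreted protein that blocks osteoclast formation, and its mean log2 value was 8.51 in ctrl and 7.94 in unlabelled, 9.58 in labelled and 6.45 in late cells. Ranges of the 4 groups did not overlap. It was higher in ch+ than ch- cells by 1.64 (SE 0.22, limma adjusted p 8.62e-06) and lower in late than ch+ cells by a log2 fold change of -3.14 (SE 0.22, limma adjusted p 2.26e-11). Against ctrl it was 1.08 in ch+ (SE 0.27, limma adjusted p 0.0197; 0.99 and not called without ctrl 373) and -2.06 in late cells (SE 0.27, limma adjusted p 2.40e-06). Labelled early cells and late cells thus lay on opposite sides of ctrl, each in 6 of 6 libraries, while unlabelled cells lay below ctrl at -0.56, which was not called (limma adjusted p 0.417). Efnb2, which encodes ephrin-B2, was 0.87 higher in ch+ than ch- (SE 0.24, limma adjusted p 0.0273), and in late cells it was -2.31 against ch+ (SE 0.24, limma adjusted p 2.48e-08) and -1.83 against ctrl (SE 0.29, limma adjusted p 2.93e-05). Its ch+ minus ctrl difference of 0.48 was not called (95% interval -0.12 to 1.08, limma adjusted p 0.434). Ephb4, also on the list and tested, was not called in any pooled comparison.

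In late cells 3 inhibitors were higher and 4 lower than ctrl, with a median of 0.19. Besides Sema3a and Efnb2, Lum, which encodes the matrix protein lumican (-1.95, SE 0.28, limma adjusted p 7.44e-06), and Wnt4 (-0.84, SE 0.24, limma adjusted p 0.0120) were lower, although Wnt4 was not called after rescaling to equal totals (-0.15) or without the ML1 late libraries (-0.44). Tgfb3, a transforming growth factor (1.74, SE 0.23, limma adjusted p 1.66e-06), Esr1, the estrogen receptor (0.86, SE 0.28, limma adjusted p 0.0294; 0.59 and not called without ctrl 373), and Sfrp1 were higher. Sfrp1, a secreted protein that binds Wnt ligands, was also higher in ch+ cells than in ctrl (0.80, SE 0.18, limma adjusted p 0.00589) and than in ch- (0.81, SE 0.15, limma adjusted p 0.000439). Thus 2 inhibitors were higher and 0 lower in ch+ against ctrl in the pooled fit, with Wnt4 called lower in ML1 ch+ alone, and 3 were higher and 0 lower in ch+ against ch-, with a median of 0.17 for the latter. Late against ch+, Tgfb3 (1.82, limma adjusted p 1.87e-08) and Nog (0.64, limma adjusted p 0.0909) were higher and Lum was lower (-1.76, limma adjusted p 1.06e-06), with Nog, a BMP antagonist, losing its call without ML1 late 583 (0.58), HL60 late 398 (0.57) or 399 (0.50), HL60 ch+ 524 (0.62), or ML1 ch+ 538 (0.63), 539 (0.61) or 541 (0.60). In ch- against ctrl, 0 of 11 were called by limma and 1 had an unadjusted p under 0.05.

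Marker lists of other cells moved between the same groups, and their part in the results above was not tested. The log2 of the summed level of 12 neutrophil and blood cell markers, led by S100a9, was 6.65, 6.69 and 9.02 in ctrl, 10.37 to 11.63 in ch- (median 10.65), 10.06 to 11.45 in ch+ (median 11.00) and 6.47 to 6.98 in late libraries (median 6.73). For 8 red cell markers, led by Hbb-bs, it was 8.39, 8.78 and 9.46 in ctrl, 12.32 to 13.32 in ch- (median 12.92), 12.09 to 13.66 in ch+ (median 13.06) and 6.59 to 7.05 in late libraries (median 6.67). Both early fractions thus carried more blood and red cell transcript than ctrl or late cells, although CD45 cells were removed before the sort and Ter119 was stained in it. Of the 10 blood markers tested, 10 were higher in ch+ and 9 in ch- than in ctrl, and 10 were lower in late than in ch+ cells, as were 8 of 8 red cell markers, while between ch+ and ch- limma called 0 of the 10 and 0 of the 8 red cell markers (0 and 0 at an unadjusted p under 0.05). In late against ctrl, 2 blood and 4 red cell markers were lower.

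For 12 osteoblast and osteocyte markers, led by Col1a1, the summed log2 level was 20.25, 20.39 and 20.69 in ctrl, 19.96 to 20.45 in ch- (median 20.25), 19.82 to 20.07 in ch+ (median 19.89) and 16.01 to 18.90 in late libraries (median 17.67). The HL60 late libraries lay from 18.55 to 18.90 and the ML1 late libraries from 16.01 to 16.79, and 9 of 11 tested markers were lower in late cells than in ctrl and 9 of 11 than in ch+. In ch+ against ctrl, limma called 0 of the 11 in the pooled fit (0 at an unadjusted p under 0.05), with a median of -0.47. By line, Bglap, Col1a1 and Sp7 were called lower there with HL60, and Col1a1 and Sp7 with ML1. Between ch+ and ch-, Mepe was lower in the pooled fit and in each line, and Sp7 with ML1. Mepe was also called higher in ch- than in ctrl. For 12 chondrocyte markers, led by Col11a1, the summed log2 level was 16.83, 17.11 and 17.72 in ctrl, 16.20 to 17.00 in ch- (median 16.60), 15.12 to 15.89 in ch+ (median 15.45) and 12.33 to 14.87 in late libraries (median 13.55). All 12 were lower in late cells than in ctrl, and 11 of 12 were lower in ch+ than in ch-, with a median of -3.20, so they moved between the same groups as Tnfrsf11b and Csf1. In ch+ against ctrl, 11 of 12 were lower as well, with a median of -3.61. Late against ch+, only 2 of the 12 were called lower, Col11a1 and Col2a1, with a median of 0.14, although the sum fell. For 9 smooth muscle markers, led by Rgs5, it was 14.31, 14.73 and 15.21 in ctrl, 13.89 to 14.72 in ch- (median 14.36), 13.07 to 13.40 in ch+ (median 13.26) and 13.85 to 14.07 in late libraries (median 14.05). Of these, 8 of 9 were lower in ch+ than in ch-, with a median of -1.66, in late against ctrl 5 were lower and 1 higher, and in late against ch+ 6 were higher and 1 lower. In ch+ against ctrl, 8 of the 9 were lower, with a median of -1.99. Whether the lower osteoprotegerin of ch+ cells or the higher RANKL of late cells goes with the lower level of these marker transcripts was not tested.

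For 10 reticular stromal markers, led by Cxcl12, the summed log2 level was 15.56, 15.78 and 16.18 in ctrl, 15.63 to 16.57 in ch- (median 16.27), 16.32 to 16.89 in ch+ (median 16.64) and 16.84 to 17.15 in late libraries (median 16.95). In late against ctrl 7 of 10 were higher and Pdgfra was lower, so stromal transcripts moved up along with Tnfsf11, Csf1 and Il34, and their part was not tested. In ch+ against ctrl 6 of 10 were higher. Late against ch+, where Tnfsf11 and Il34 were called as well, 4 of 10 were higher and Adipoq and Pdgfra were lower, with a median of 0.22. In ML1 ch- cells 5 of 10 were higher than in ctrl and in HL60 ch- cells 0 were by limma (1 at an unadjusted p under 0.05), the same fractions in which Il34 lay at 1.10 and -0.01 from ctrl. For 9 endothelial markers, led by Cdh5, the sum was 8.12, 8.32 and 8.56 in ctrl, 7.68 to 8.82 in ch- (median 8.47), 8.03 to 9.16 in ch+ (median 8.83) and 7.90 to 8.72 in late libraries (median 8.19), with 0 of 6 tested markers called by limma in the pooled comparisons with ctrl (1 at an unadjusted p under 0.05 in late cells, 0 in ch+ and 0 in ch-). In ML1 late cells against ctrl, 4 of the 6 were lower, and in late against ch+ cells 3 were (Kdr, Pecam1 and Tek), with a median of -0.81. In HL60 ch+ cells the endothelial sum, 9.16 at its highest, lay above every HL60 ch- (7.68 to 8.77) and ctrl library, and Cdh5 was called higher there than in HL60 ch- (1.22, limma adjusted p 0.0573), with a list median of 0.93, while 0 of 6 were called against ctrl by limma (1 at an unadjusted p under 0.05).

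Markers of macrophages and osteoclasts were partly below the filter. Of 12 macrophage markers, 8 were below the filter, among them Csf1r, Adgre1, Cd68 and C1qa, and the summed log2 level, led by Mertk, was 9.43, 9.80 and 10.07 in ctrl, 9.85 to 10.53 in ch- (median 10.24), 9.46 to 10.65 in ch+ (median 9.96) and 8.31 to 9.62 in late libraries (median 8.95). In late against ctrl, Lyz2, Mertk and Mrc1 were lower and Cd14 was higher, and in late against ch+ Lyz2 and Mrc1 were lower. By line, late cells were called against ctrl for Lyz2, Mertk and Mrc1 with ML1, all lower. With HL60, Lyz2 was lower and Cd14 higher, and no macrophage marker was called between the late lines. In the pooled fit Lyz2 was higher than ctrl in both early fractions. By line, Lyz2 was called higher than ctrl in both ML1 fractions, and Cd14 in HL60 ch+ cells. For the 10 osteoclast markers in the table, led by Nfatc1, the sum was 10.18, 10.34 and 10.45 in ctrl, 10.20 to 10.64 in ch- (median 10.43), 10.17 to 10.78 in ch+ (median 10.46) and 10.14 to 10.87 in late libraries (median 10.29). Calcr, Ocstamp, Oscar and Tnfrsf11a were below the filter. Atp6v0d2, a proton pump subunit of osteoclasts, had a mean log2 value of 5.68 in labelled and 3.12 in unlabelled early cells, 4.63 in ctrl and 3.33 in late cells. In the pooled fit it was the 1 osteoclast marker of 6 tested called between ch+ and ch-, where it was higher. Of the 6, 4 had an unadjusted p under 0.05 in that comparison, with a median of 0.62. By line, Atp6v0d2 was called higher in ch+ than ch- with both, Mmp9 higher with HL60 alone and Itgb3 lower with ML1 alone. Against ctrl, Atp6v0d2 was called lower in ch- cells, pooled and with HL60, and Itgb3 higher in ML1 ch- cells. In ch+ against ctrl, 0 of the 6 were called by limma, with 2 at an unadjusted p under 0.05. In late against ctrl, Mmp9 was higher and Atp6v0d2 lower, and in late against ch+ Acp5, Atp6v0d2 and Nfatc1 were lower. By line, 0 of the 6 were called in HL60 late cells against ctrl by limma, with 2 at an unadjusted p under 0.05. In ML1 late cells against ctrl, Mmp9 was higher and Acp5, Atp6v0d2 and Ctsk were lower. Mmp9 was also called lower in HL60 late than in ML1 late cells.

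The genes whose log2 values followed each member most closely over the 21 libraries were listed by Pearson r, as a description of libraries that share groups. For Tnfsf11 they were Cyp4v3 (0.894), Extl3 (0.890), Serpina3f (0.880), Ifitm3 (0.869) and Rbms1 (0.865). For Tnfrsf11b they included Nfkbiz (0.860), Tm4sf1 (0.778), Rpl3 (0.770) and Rspo4 (0.759). For Csf1 they were Igfbp5 (0.926), Serping1 (0.877), Plpp3 (0.876), Cyp1b1 (0.869) and Enpp4 (0.866). Tgfbr3 (0.875), Tmem176a (0.874), C1ra (0.874), Deptor (0.863) and Hp (0.860) were those of Il34. No gene appears under more than 1 member. Between members r was 0.68 for Csf1 with Il34, 0.67 for Tnfsf11 with Il34 and 0.59 for Tnfsf11 with Csf1, while Tnfrsf11b gave -0.20 with Tnfsf11, -0.58 with Csf1 and -0.21 with Il34 (n = 21).

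Since Tnfsf11 and Csf1 were both higher in late cells, the bases just before their starts are shown, from the RefSeq promoter table of GRCm38.p6, which held 2 of the 4 members. Each sequence is the 250 bases before the start, read 5′ to 3′ on the minus strand, at chr14:78308044-78308293 for Tnfsf11 and chr3:107760470-107760719 for Csf1. Capitals mark matches to any of 6 motifs searched on both strands, namely the TATA box TATAAA, the CCAAT box CCAAT, the GC box GGGCGG, the RUNX core TGTGGT, the AP-1 motif TGANTCA and the STAT motif TTCNNNGAA.
Tnfsf11: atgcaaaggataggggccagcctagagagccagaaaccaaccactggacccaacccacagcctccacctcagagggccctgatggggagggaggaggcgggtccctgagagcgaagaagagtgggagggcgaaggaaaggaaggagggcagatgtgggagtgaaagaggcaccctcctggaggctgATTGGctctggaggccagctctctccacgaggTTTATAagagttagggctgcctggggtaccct
Csf1: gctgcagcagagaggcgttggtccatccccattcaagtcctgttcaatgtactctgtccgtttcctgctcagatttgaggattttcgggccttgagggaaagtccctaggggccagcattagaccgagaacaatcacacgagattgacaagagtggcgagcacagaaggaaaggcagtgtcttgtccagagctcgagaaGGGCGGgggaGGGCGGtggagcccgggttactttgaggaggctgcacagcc
Tnfsf11 holds CCAAT and TATAAA on the opposite strand, at positions -64 and -32 from the start, and 60.4% of its bases are G or C. Csf1 holds GGGCGG at 2 places, -51 and -41 from the start, and 56.4% of its bases are G or C. The RUNX, AP-1 and STAT motifs had no match in either window. Of 32851 promoters of that length in the table, 12.4% hold TATAAA, 33.8% CCAAT, 32.7% GGGCGG, 14.0% TGTGGT, 6.75% TGANTCA and 7.02% TTCNNNGAA. A match is a description of the letters only.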

How the data were processed

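The deposited table holds, per the authors, regularized log2 values of normalized counts for 26852 Ensembl genes in 21 libraries, made with STAR 2.5.1b, RSEM 1.2.29 and, by the labels, DESeq2 1.10.1 on mm10. The study's methods give another version of that package and call the scale log10, and values from -2.33 to 22.44 were read as log2. Raw counts and the depth per library are not given, so no count test was run. Symbols were matched for 26686 genes. The deposited values went as they were into limma 3.58.1 (R 4.3.3, lmFit and eBayes with a mean-variance trend, two-sided), with Benjamini-Hochberg adjustment over the 12976 genes with a mean of at least 3.32. A gene was called at an adjusted p under 0.1. The design planned for log2 values was kept. One fit with 4 groups pooled HL60 and ML1 (5 comparisons), and one with 7 groups kept the lines apart (11 comparisons). The code was tested on simulated data.

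Members and lists were chosen with earlier results of these data known. Of each pathway list all genes were counted, and up to 6 called genes per comparison with the largest absolute fold change were named, with Tnfrsf11a, Csf1r, Lgr4 and Pth1r always. The 5 genes nearest each member and the most abundant gene of each marker list were also named. Other marker genes and the overlapping genes were named after their values were seen. Exon lengths came from GENCODE vM21, as the union of exons. Alternatives were no filter, quantile normalization, rescaling to equal library totals, no trend and the compared groups alone. Others were the 7-group fit with lines weighted equally, an adjusted p under 0.05, each library left out, and the longest transcript as length. Chosen after seeing the data were rescaling to totals without the 6 genes over a mean of 16, and leaving out the ML1 late libraries. The study's legend names more controls than the 3 in this table, and those are not analysed here.

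Among the genes that followed a member most closely by Pearson r, 1 gene is not reported here.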

Additional observations from a re-analysis of the deposited data

Results flagged for a closer look

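Among the 6 early ch+ libraries, ML1 ch+ 541 stood apart for a pair of members. For Tnfsf11 its log2 value of 6.03 left a gap to the next library of 0.708 of the group's range, and for Csf1 its value of 10.77 left a gap of 0.899, where 0.625 is the 95% critical value of Dixon's ratio for 6 libraries. In 12 groups tested, chance alone would mark about 1 in 20. The cause was not tested.

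For 9 of the named pathway genes the change from ctrl in late cells differed between the cell lines, by limma's test of HL60 late against ML1 late. In members and named genes 93 differences between the lines were tested, with those in ch+ and ch- cells included. Over all genes, 4.09% were called between the lines in late cells. HL60 minus ML1 was -2.59 for Ccl2 (limma adjusted p 5.39e-05), where HL60 late lay 1.40 and ML1 late 3.99 above ctrl. It was -1.63 for Ccl7 (limma adjusted p 0.0854) and -1.47 for Il6 (limma adjusted p 0.0963), which lay higher in ML1 late cells, at 2.21 and 2.67 over ctrl against 0.58 and 1.20 with HL60. Lum differed by 1.46 (limma adjusted p 1.83e-08), Sema3a by 1.19 (limma adjusted p 0.00159) and Pth1r by 0.91 (limma adjusted p 0.000188), all lower in ML1 late cells. Their values against ctrl were -1.22, -1.47 and -1.21 with HL60 and -2.68, -2.66 and -2.12 with ML1. Wnt4 differed by 0.80 (limma adjusted p 0.0502), Ptprz1 by 0.71 (limma adjusted p 0.0595) and Spp1 by 0.62 (limma adjusted p 0.0338), with -0.44, -0.71 and 0.85 against ctrl with HL60 and -1.24, -1.42 and 0.24 with ML1. Of the other genes on the pathway lists, the test also called Lif (-1.57), Lifr (0.63), Vdr (0.94) and Rspo3 (1.27). The summed osteoblast and chondrocyte markers were lower in ML1 late than in HL60 late libraries as well, and their part in these differences was not tested.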

How the results depend on the processing

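The calls of Tnfsf11 in late cells against ctrl and against ch+, of Csf1 and Il34 in late cells against ctrl, and of Tnfrsf11b and Csf1 in ch+ against ch- held in the pooled fit under every alternative and without any single library. Of the 20 pooled member results, 131 of 140 values under planned settings, 36 of 40 under added ones and 401 of 420 with a library left out kept direction and call. Of the 44 results by line, these were 241 of 264, 41 of 44 and 883 of 924. Of 60 named pathway results, they were 377 of 420, 111 of 120 and 1201 of 1260, and none of them turned sign.

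Rescaling to equal totals moved the median of all genes to 0.71 in late against ctrl, 0.63 in late against ch+ and 0.13 in ch+ against ch-. Genes called in late against ctrl then numbered 8302 (93.8% of them higher, against 47.3% of 2795) and in late against ch+ 9031 (93.5% against 44.6% of 2555). The share higher was 66.7% against 55.4% in ch+ against ctrl, 41.9% against 59.0% in ch- against ctrl and 78.6% against 57.1% in ch+ against ch-. Under the rescaling without 6 very high genes these shares were 67.6%, 70.2%, 54.6%, 78.5% and 32.4%, in the order given. Rescaling to all totals turned Tnfrsf11b in late against ctrl to 0.19 pooled and 0.47 with ML1, Tnfsf11 between lines in late cells to -0.066 and Csf1 in ML1 ch- against ctrl to -0.076. It brought to a call Tnfsf11 in ch+ against ctrl (1.12), Tnfrsf11b (0.95) and Csf1 (0.81) in late against ch+ and Csf1 in HL60 ch+ against ctrl (0.57), and took the call from Tnfrsf11b in ML1 ch+ against ctrl (-1.06). The rescaling without 6 genes turned Tnfsf11 in ch+ against ch- to -0.058, Csf1 in ch- against ctrl to 0.029, Il34 in HL60 ch- against ctrl to 0.11 and Il34 in ML1 ch+ against ch- to -0.080, and brought to a call Csf1 in late against ch+ (0.37) and Il34 in ML1 ch- against ctrl (1.20). The cause was not tested.

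Some calls were lost with values that stayed as they were, since these settings change the test alone. At an adjusted p under 0.05, with no filter and with no trend these were Il34 in late against ch+ (0.79) and in ML1 ch+ against ctrl (1.13), Csf1 in HL60 late against ctrl (0.51), Tnfsf11 in HL60 ch+ against ctrl (1.33) and Tnfrsf11b in ML1 ch+ against ctrl (-1.11), the last pair also with the groups fitted alone. Csf1 in HL60 ch+ against ch- (0.68) was lost with no filter or no trend, and Tnfrsf11b in ML1 ch+ against ch- (-1.35) with no filter or groups alone. Of named pathway genes, no filter took the call from Lgr4, Ptger4, Pth1r and Osmr in ch+ against ctrl, Pth1r and Cxcl12 in ch+ against ch-, Ccl7 and Spp1 in late against ctrl, and Sdc1, Ccl7, Wnt5a and Nog in late against ch+. No trend did so for Lgr4, Pth1r and Osmr in ch+ against ctrl, Cxcl12 in ch+ against ch-, Ccl7 and Spp1 in late against ctrl, and Sdc1 and Wnt5a in late against ch+, and groups alone for Lgr4, Spp1 and Sdc1 in the same comparisons. A call was gained by Csf1 in ch+ against ctrl with groups alone (0.42). Tnfsf11 in ch+ against ctrl gained one in the 7-group fit with lines weighted equally (1.04). At an adjusted p under 0.05, 512 genes were called in ch+ and 156 in ch- against ctrl, in place of 800 and 249. With the ML1 late libraries left out, which leaves fewer samples, 1613 genes were called in late against ctrl and 1475 in late against ch+, and Il34 (0.62), Adam19 (0.74) and Sdc1 (0.42) in late against ch+ were not called. By the longest transcript, Csf1 per kilobase was 8.63 in ctrl and 9.24 in late cells.

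Leaving out each library in turn changed the call or the sign in these ranges. Pooled, ch+ against ctrl ran from 0.74 to 1.42 for Tnfsf11, from -1.07 to -0.62 for Tnfrsf11b and from 0.32 to 0.49 for Csf1. Tnfsf11 in ch+ against ch- ran from -0.14 to 0.27, Csf1 in ch- against ctrl from -0.18 to 0.027 and Il34 in late against ch+ from 0.58 to 1.00. Genes called in ch- against ctrl numbered 136 to 281, with 140 without ctrl 374 and 136 without ctrl 375. For Tnfsf11 by line, HL60 ch+ against ctrl ran from 1.03 to 1.71, ML1 ch- against ctrl from 0.68 to 1.59, ML1 ch+ against ch- from -0.83 to 0.081 and HL60 against ML1 in ch- from -0.75 to 0.16. For Tnfrsf11b, ML1 ch+ against ctrl ran from -1.34 to -0.89, ML1 ch- against ctrl from -0.10 to 0.50, ML1 ch+ against ch- from -1.61 to -1.01 and HL60 against ML1 in ch- from -0.073 to 0.53. For Csf1, HL60 late against ctrl ran from 0.39 to 0.61, ML1 ch- against ctrl from -0.051 to 0.18, HL60 ch+ against ch- from 0.48 to 0.85 and HL60 against ML1 in ch+ from -0.037 to 0.18. For Il34, ML1 ch+ against ctrl ran from 0.94 to 1.28, HL60 ch- against ctrl from -0.19 to 0.15, ML1 ch- against ctrl from 0.92 to 1.32, ML1 ch+ against ch- from -0.20 to 0.19, HL60 against ML1 in late cells from -0.97 to 0.094 and HL60 late against ctrl from 0.80 to 1.86. Without a change of call or sign, Tnfrsf11b ran from -0.74 to -0.28 in late against ctrl, from 0.20 to 0.47 in late against ch+, from 0.11 to 0.56 in ch- against ctrl and from -0.81 to -0.35 in HL60 ch+ against ctrl, Csf1 from 0.13 to 0.26 in late against ch+ and from 0.19 to 0.46 in ML1 ch+ against ch-, and Il34 from 0.36 to 0.70 in ch- against ctrl, from 0.14 to 0.44 in ch+ against ch- and from 0.30 to 0.64 in HL60 ch+ against ctrl. The study describes ch+ and ch- cells as taken from the same marrow. No paired analysis was possible because the groups share no replicate numbers and the labels do not show which libraries pair. The depth of each library is unknown, so which low genes were missed cannot be said.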
